A study of Mus musculus with 6 samples.

Results

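The oligodendrocyte precursor and lineage genes are a set of 10 genes chosen by name: Pdgfra, Cspg4, C1ql1, Neu4 and Lhfpl3, which mark the precursor cells, Gpr17 and Enpp6, which mark cells committed to form oligodendrocytes, and Olig1, Olig2 and Sox10, transcription factors of the whole lineage. All 10 were among the 25239 genes counted and among the 14445 genes with enough reads to be tested. They were measured by RNA sequencing of hippocampus from 3 wild type mice (Ube3am+/p+, called WT) and 3 mice lacking the maternal Ube3a allele (Ube3am-/p+), with 1 library per mouse. All mice were male, 6 to 8 weeks old and of the C57BL/6 strain, and none of the labels names a treatment. The Ube3am-/p+ mouse is a model of Angelman syndrome that keeps its paternal Ube3a copy, which is silent in most neurons but active in most other cells, and the deletion itself is not described in the sources used here. The comparison asks which of these genes differed between the genotypes.

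Oligodendrocyte precursor cells persist in the adult brain, divide slowly, and carry the receptor for platelet-derived growth factor (Pdgfra) and the surface proteoglycan NG2 (Cspg4). When a precursor commits to differentiation it loses these surface proteins, passes through a stage with Gpr17 and then Enpp6, and finally makes myelin. Olig2 and Sox10 are present throughout, and Sox10 switches on many of the myelin genes. These cells are a small share of hippocampal tissue, so that in a bulk library a lower count from fewer cells of a type and one from less RNA per cell cannot be told apart.

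Sequences upstream of the transcription start were matched by symbol for 6 of the 10 genes in RefSeq (GRCm38.p6), and 3 of them are shown because they differ in the motifs that bear on the study and on the lineage factors. The windows hold the 250 bases before the start on the plus strand, 5′ to 3′. Capitals mark AGGTCA (a half-site bound by retinoic acid receptors, whose signalling the study addressed), CANNTG (the letters read by Olig1, Olig2 and other basic helix-loop-helix factors) and ACAATG (letters read by Sox proteins), each searched on both strands, and no marked motif overlapped another. The Pdgfra window is chr5:75152001-75152250, the Lhfpl3 window chr5:22745804-22746053 and the Enpp6 window chr8:46986637-46986886.
Pdgfra: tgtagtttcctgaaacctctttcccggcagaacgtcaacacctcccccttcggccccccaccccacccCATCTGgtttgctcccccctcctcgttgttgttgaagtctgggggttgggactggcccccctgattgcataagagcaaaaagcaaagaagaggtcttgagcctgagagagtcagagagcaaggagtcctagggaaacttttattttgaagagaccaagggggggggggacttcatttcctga
Lhfpl3: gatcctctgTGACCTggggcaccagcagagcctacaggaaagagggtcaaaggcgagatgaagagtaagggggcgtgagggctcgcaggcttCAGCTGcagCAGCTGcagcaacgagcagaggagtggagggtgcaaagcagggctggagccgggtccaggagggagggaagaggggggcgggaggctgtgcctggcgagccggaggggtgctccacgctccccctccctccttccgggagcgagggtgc
Enpp6: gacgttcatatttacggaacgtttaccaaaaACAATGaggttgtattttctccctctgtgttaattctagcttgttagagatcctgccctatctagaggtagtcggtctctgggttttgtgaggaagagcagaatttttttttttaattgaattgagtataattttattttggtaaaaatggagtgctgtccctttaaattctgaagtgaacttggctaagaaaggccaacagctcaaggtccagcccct

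Lhfpl3 was the 1 gene of these 6 with AGGTCA, read on the reverse strand 241 bases before its start, and 14.0% of all 32851 windows of this length held it. CANNTG was in the windows of Lhfpl3, Neu4 and Pdgfra and in 66.2% of all windows. ACAATG was in those of Enpp6 and Olig2 and in 10.7% of all, while ACAAAG, a further Sox motif, was in none of the 6 and in 16.5% of all. These matches describe letters only and are not sites of binding.

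The libraries held 7293272 to 8675252 counts on genes in WT mice and 8871052 to 11314409 in Ube3am-/p+ mice, and levels are given as CPM, a gene's counts scaled to its library's total, on which scale 1 count equals 0.0884 to 0.137. Before the members, the deleted gene was checked. Ube3a stood at 103.5, 140.8 and 151.0 CPM in WT mice 1, 2 and 3 and at 96.8, 82.9 and 80.6 CPM in Ube3am-/p+ mice 1, 2 and 3. It was lower in every Ube3am-/p+ library, by -0.58 on the log2 scale (SE 0.12, adjusted p = 0.0363, edgeR), although it shares 1803 exonic bases with the antisense transcript Snhg14 and the strand setting of the counting was not stated. It passed under 9 of 18 alternatives, with adjusted p-values from 9.59e-07 to 0.372. The libraries also differed in base composition. The Spearman correlation across genes between a gene's deviation from its mean and its GC content was 0.0455 in WT mouse 1, -0.506 in mouse 2 and -0.571 in mouse 3. In the Ube3am-/p+ libraries it was 0.0588, 0.526 and 0.528, so that GC-rich genes were counted relatively more in Ube3am-/p+ mice 2 and 3 and relatively less in WT mice 2 and 3. Genotype and this gradient cannot be told apart with 3 mice per genotype, and the difference of each of the 10 genes is therefore also given after GC content and transcript length were corrected for. WT mouse 1 and Ube3am-/p+ mouse 1 were the most alike of the 15 pairs of libraries (chi-square of their counts per degree of freedom 3.78, against 3.95 to 21.0 for the other pairs). After that correction the Ube3a difference was -0.20 (adjusted p = 0.240).

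The 10 genes together held 453 to 472 CPM in WT mice and 451 to 461 CPM in Ube3am-/p+ mice, ranges that overlap. Per kilobase of the longest transcript, Olig1 was the most abundant in WT mice, at 66.4 ± 3.71 CPM per kb (SD, n = 3), followed by Sox10 at 20.0 ± 0.413, Gpr17 at 13.7 ± 0.824, Olig2 at 12.02 ± 3.46 and Pdgfra at 10.1 ± 0.472. Lhfpl3 came next at 6.61 ± 0.945 CPM per kb. C1ql1, Cspg4, Enpp6 and Neu4 lay between 3.37 and 4.50 CPM per kb, each within 1 SD of its neighbour in this order, as were Gpr17 and Olig2, and Olig2 and Pdgfra. In Ube3am-/p+ mice C1ql1 reached 8.08 ± 0.578 CPM per kb against 7.44 ± 0.979 for Pdgfra, while Olig1, Sox10, Olig2 and Gpr17 remained the 4 most abundant per kilobase.

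**Figure D1:**
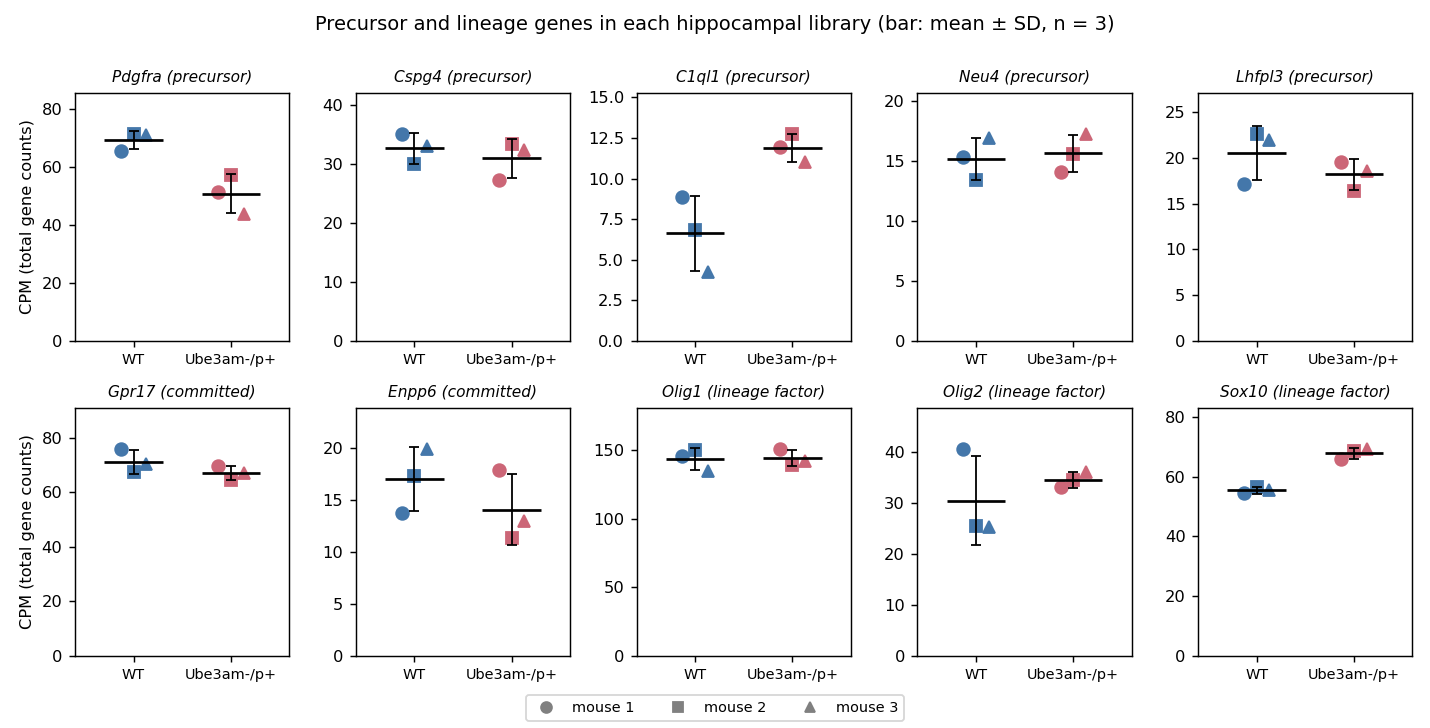
CPM of total gene counts (vertical axes, each from 0) of the 10 genes in each library, with circles, squares and triangles for mice 1, 2 and 3 of each genotype, and bars for the mean ± SD (n = 3). The genotypes do not overlap for Pdgfra (lower in Ube3am-/p+), C1ql1 and Sox10 (both higher), and overlap for the other 7.

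Among the precursor genes, Pdgfra was the only one that passed the test. Pdgfra, the receptor through which platelet-derived growth factor keeps precursors dividing, stood at 65.6, 71.4 and 71.0 CPM in WT mice 1, 2 and 3 and at 51.3, 57.3 and 43.9 CPM in Ube3am-/p+ mice 1, 2 and 3. All 3 Ube3am-/p+ libraries lay below all 3 WT libraries, with a mean of 50.8 ± 6.69 CPM against 69.3 ± 3.23, or 0.733 times the WT mean. Its log2 fold change was -0.43 (SE 0.10, 95% interval -0.65 to -0.21, adjusted p = 0.0466), below the threshold used throughout, an adjusted p of 0.05 with a fold change above 1.2. In the same fit 290 of all genes tested, or 2.01%, passed in either direction and 143, or 0.990%, passed as lower (1.02% as higher). After the GC and length correction Pdgfra still passed (log2 fold change -0.36, adjusted p = 0.0461), when 0.648% of genes did.

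The Pdgfra call was close to its threshold. Without edgeR's robust dispersion its log2 fold change was the same and its adjusted p was 0.0617, when 0.0485% of genes passed, and over 18 alternatives the adjusted p ran from 0.00311 to 0.251, with 10 of them past the threshold. Pdgfra was lower in Ube3am-/p+ mice under all 18, by -0.34 to -0.52 on the log2 scale. The exact permutation test over mice gave p = 0.1, the smallest value that 3 against 3 allows. Leaving out WT mouse 1 or Ube3am-/p+ mouse 1 kept the call (adjusted p = 0.00920 and 0.0260), and leaving out any other mouse lost it (0.182 to 0.251). The annotation places 2 genes on the opposite strand of Pdgfra (chr5:75152292-75198215, plus strand, GRCm38), over 456 and 166 exonic bases, neither of which is used here, and reads from those could not be told apart from its own without strand information. Mir7025, within Pdgfra on the same strand, had 0 counts.

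C1ql1, a secreted protein related to complement C1q that precursors and some neurons make, showed the largest difference of the 10 genes in the opposite direction. It was at 8.83, 6.80 and 4.25 CPM in WT mice 1, 2 and 3 and at 11.9, 12.7 and 11.03 CPM in Ube3am-/p+ mice 1, 2 and 3, from 31 to 75 counts in WT and 106 to 144 counts in Ube3am-/p+ libraries. The Ube3am-/p+ libraries were all above the WT libraries and close to each other, whereas the WT libraries spread by a CV of 34.6%, well above the 13.5% expected from counting. The log2 fold change was 0.85 (SE 0.22, 95% interval 0.38 to 1.31), and its adjusted p of 0.0518 did not pass. With the GC and length correction it was 0.46 (0.07 to 0.84, adjusted p = 0.250). C1ql1 (chr11:102939264-102946688, minus strand, GRCm38) has the highest GC content of the 10 genes, 65.8%. Over its alternatives the adjusted p ran from 0.00176 to 0.291.

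The other 3 precursor genes overlapped between the genotypes. Cspg4, the NG2 proteoglycan, was at 35.1, 30.0 and 33.0 CPM in WT mice 1, 2 and 3 and at 27.3, 33.4 and 32.5 CPM in Ube3am-/p+ mice 1, 2 and 3 (log2 fold change -0.05, 95% interval -0.30 to 0.20, adjusted p = 0.818). The ratio of Pdgfra to Cspg4 counts overlapped between the genotypes (exact permutation p = 0.2), and 3 against 3 mice cannot give a p below 0.1. After the correction Cspg4 was at -0.23 (-0.45 to -0.01, adjusted p = 0.336). Neu4, a sialidase, was at 15.3, 13.4 and 16.9 CPM in WT and 14.1, 15.6 and 17.2 CPM in Ube3am-/p+ mice (log2 fold change 0.06, 95% interval -0.25 to 0.38, adjusted p = 0.820, and 0.07 after the correction). Lhfpl3, a membrane protein of the tetraspan kind, was at 17.2, 22.6 and 21.9 CPM in WT and 19.6, 16.4 and 18.6 CPM in Ube3am-/p+ mice (-0.16, -0.46 to 0.14, adjusted p = 0.505). Its sign turned with the correction (0.05). A930003O13Rik, which overlaps Lhfpl3 on the opposite strand over 567 exonic bases, had 229 counts in all libraries and a log2 fold change of -0.02 (adjusted p = 0.975). The 5 precursor genes summed to 142 to 147 CPM in WT mice and 123 to 135 CPM in Ube3am-/p+ mice, without overlap, and Pdgfra made up the largest share of this sum in every library. Without Pdgfra the sums were 72.7 to 76.4 and 72.9 to 79.4 CPM and overlapped.

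The 2 genes of committed cells did not pass the test. Gpr17, a G protein-coupled receptor that holds back the maturation of committed precursors, was at 75.7, 67.3 and 70.2 CPM in WT mice 1, 2 and 3 and at 69.6, 64.3 and 67.1 CPM in Ube3am-/p+ mice 1, 2 and 3. The groups overlapped in part, and the log2 fold change was -0.07 (SE 0.09, 95% interval -0.26 to 0.12, adjusted p = 0.677). After the correction Gpr17 no longer overlapped between the genotypes, at -0.14 (-0.31 to 0.02, adjusted p = 0.437). Lims2, on the opposite strand of Gpr17 with 188 shared exonic bases, was at 0.05 (adjusted p = 0.849). Enpp6, a choline-releasing phosphodiesterase of newly forming oligodendrocytes, was at 13.8, 17.3 and 19.9 CPM in WT and 17.9, 11.3 and 12.9 CPM in Ube3am-/p+ mice. Ube3am-/p+ mouse 1 lay within the WT range while mice 2 and 3 lay below it, and the log2 fold change of -0.26 had an interval from -0.65 to 0.12 (adjusted p = 0.387) and was -0.05 after the correction (adjusted p = 0.917). Without both mice numbered 1, an alternative added after the data were seen, Enpp6 passed at -0.60 (adjusted p = 0.00948), when 28.3% of all genes passed, and with the correction it did not (-0.28, adjusted p = 0.333). Over all alternatives the adjusted p of Enpp6 ran up to 0.933.

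Of the lineage transcription factors, Sox10 was the one without overlap between the genotypes. Sox10 was at 54.4, 56.7 and 55.5 CPM in WT mice 1, 2 and 3 and at 65.8, 68.8 and 69.3 CPM in Ube3am-/p+ mice 1, 2 and 3. Both groups were tight, with CVs of 2.06% and 2.74% that are no larger than the 4.70% and 3.79% expected from counting. The mean in Ube3am-/p+ mice was 1.22 times that in WT mice, and the log2 fold change of 0.31 (SE 0.09, 95% interval 0.12 to 0.50) had an adjusted p of 0.0638 and did not pass with edgeR. DESeq2, which called 6.69% of all genes, gave 0.31 with an adjusted p of 0.0462, and over the alternatives the adjusted p ran from 0.0105 to 0.958. The difference shrank to 0.02 (-0.16 to 0.21, adjusted p = 0.936) after the GC and length correction, and the GC content of Sox10 (chr15:79154908-79165240, minus strand) is 61.8%.

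Olig1 and Olig2 lie next to each other on chromosome 16, 41094 bp apart, and encode related basic helix-loop-helix factors. Olig1 was nearly equal between the genotypes, at 146, 150 and 135 CPM in WT mice 1, 2 and 3 and 151, 139 and 142 CPM in Ube3am-/p+ mice 1, 2 and 3 (log2 fold change 0.02, 95% interval -0.16 to 0.20, adjusted p = 0.896). After the correction it was at -0.26 (-0.43 to -0.10, adjusted p = 0.113), so that its direction depends on whether GC content is taken into account, and without both mice numbered 1 the corrected value passed (-0.42, adjusted p = 0.000333, with 9.18% of all genes called). Over its alternatives the adjusted p of Olig1 ran up to 0.996. Olig2, which specifies the lineage, was at 40.5, 25.5 and 25.2 CPM in WT and 33.0, 34.5 and 36.1 CPM in Ube3am-/p+ mice. The Ube3am-/p+ libraries were alike, and WT mouse 1 stood above all of them while WT mice 2 and 3 stood below. The log2 fold change of 0.20 (95% interval -0.14 to 0.54, adjusted p = 0.458) became -0.02 after the correction. Without WT mouse 1 it was 0.47 (adjusted p = 0.0138), so that 1 library decided this value. Without both mice numbered 1 it was 0.49 (adjusted p = 0.00291), and 0.17 with the correction (0.423). Over all alternatives the adjusted p ran from 0.00291 to 0.989. The CV of Olig2 in WT mice was 28.8%, against 6.33% from counting, while that of Olig1 was 5.59%.

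**Figure D2:**
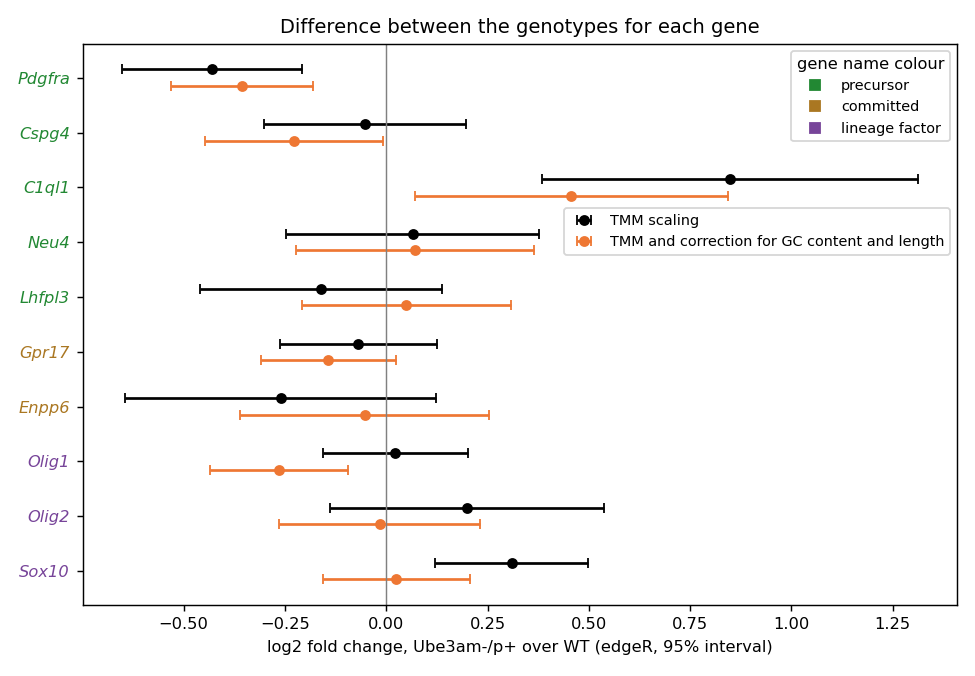
Log2 fold change of each gene (horizontal axis, Ube3am-/p+ over WT, points with 95% intervals from edgeR), in black with TMM scaling and in orange with GC content and transcript length corrected as well. Pdgfra lies below 0 in both (-0.43 and -0.36), the C1ql1 difference goes from 0.85 to 0.46, Sox10 goes from 0.31 to 0.02 and Olig1 from 0.02 to -0.26.

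Read together, 1 of the 10 genes passed the test (Pdgfra, lower), against 2.01% of all genes. At an unadjusted p below 0.05 with any fold, 3 passed (Pdgfra, C1ql1 and Sox10), and 24.6% of all genes did, or 19.6% with the fold threshold as well. The same 3 genes did not overlap between the genotypes, where 25.0% of all genes did not overlap, so that the number of non-overlapping genes was near the background. Of the 10 genes 5 had a log2 fold change below 0, as did 49.7% of all genes, and their median of -0.01 was close to the median of all genes, 0.00. With the correction Pdgfra, C1ql1 and Gpr17 did not overlap (17.4% of all genes), 6 of the 10 were below 0 (52.5% of all genes), and the median was -0.03 against -0.01. In that corrected edgeR fit 4 of the 10 had an unadjusted p below 0.05 with any fold, where 2017 of 14201 genes did. These were Pdgfra, Cspg4 and Olig1, which were lower, and C1ql1, which was higher, while Sox10 was not among them.

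Some of the differences followed GC content and others did not. In the whole table the median log2 fold change was -0.22 for the 3510 genes with a GC content below 45%, -0.07 from 45% to 50%, 0.07 from 50% to 55%, 0.19 from 55% to 60% and 0.29 for the 668 genes at 60% or above. Lhfpl3 (41.5%) and Enpp6 (42.3%) fell in the lowest class, and their -0.16 and -0.26 were near its median. Olig2 (58.5%, 0.20) and Sox10 (61.8%, 0.31) were likewise near the medians of their classes. Pdgfra (48.1%) was further below its class median of -0.07 than its SE of 0.10, and C1ql1 was above its class median of 0.29 by more than its SE of 0.22. Olig1 (61.1%, 0.02) and Cspg4 (59.2%, -0.05) were also below the medians of their classes by more than their SEs of 0.085 and 0.12. Gpr17 (53.4%, -0.07) was below its class median of 0.07, and Neu4 (49.7%, 0.06) was above its class median of -0.07. The part of base composition in any single gene's difference was not tested beyond the correction.

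**Figure D3:**
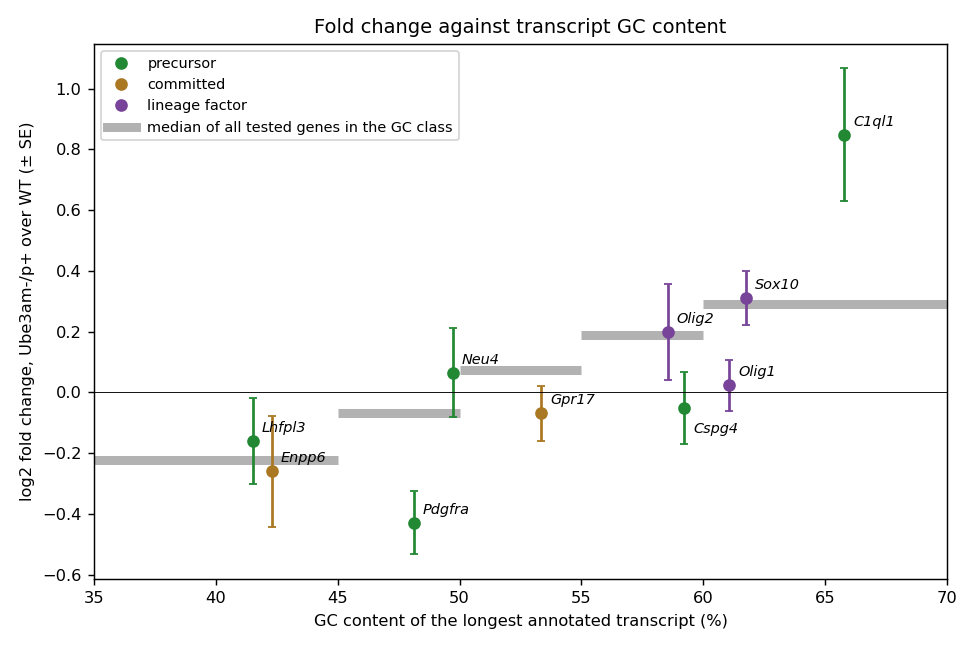
Log2 fold change (vertical axis, Ube3am-/p+ over WT, points ± SE) against transcript GC content (horizontal axis, %, longest transcript), with grey bars for the median of all tested genes in each of 5 GC classes. The grey medians climb from -0.22 to 0.29. Pdgfra, Olig1, Cspg4 and Gpr17 lie below the bars of their classes and C1ql1 and Neu4 above theirs. Olig2, Sox10, Lhfpl3 and Enpp6 lie near theirs.

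Leaving out single mice changed the calls of the 3 non-overlapping genes. Their directions could not turn in this way, as every Ube3am-/p+ library lay on the same side of all WT libraries. Pdgfra ran from -0.52 to -0.34, C1ql1 from 0.62 to 1.11 and Sox10 from 0.29 to 0.34 when each mouse was left out in turn. C1ql1 passed without WT mouse 1 (adjusted p = 0.00445) and without Ube3am-/p+ mouse 1 (0.0324), and Sox10 likewise (0.0411 and 0.0308). These are the mice in the middle of the GC gradient, and all genes called numbered 2582 without WT mouse 1 and 1816 without Ube3am-/p+ mouse 1, but 0 to 2 without any other mouse (edgeR, 2075 to 2429 at an unadjusted p below 0.05).

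**Figure D4:**
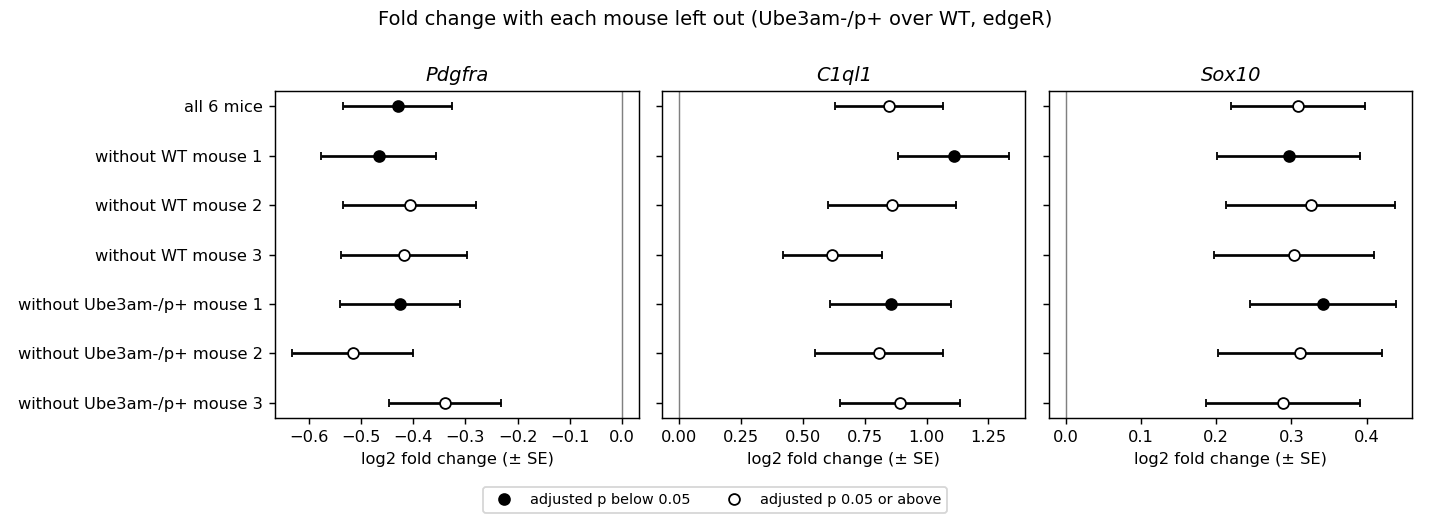
Log2 fold change of Pdgfra, C1ql1 and Sox10 (horizontal axes, points ± SE, edgeR) with all 6 mice and with each mouse left out, with filled points where the adjusted p is below 0.05. The directions could not turn, as these genes did not overlap between the genotypes. The filled points beyond the full set are those without WT mouse 1 and without Ube3am-/p+ mouse 1.

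Other genes of the lineage were read against the 2.01% of all genes called. Of 15 other precursor genes, all tested, Vcan was lower (1 lower, 0 higher). At an unadjusted p below 0.05 (edgeR), 3 of the list were lower (20.0%) and 0 higher, where 12.4% of all genes were lower and 12.2% higher. Vcan, the matrix proteoglycan versican, went from 29.3 ± 2.43 CPM in WT mice to 19.2 ± 3.06 CPM in Ube3am-/p+ mice (SD, n = 3), without overlap, and its log2 fold change was -0.60 (SE 0.13, adjusted p = 0.0387), or -0.41 after the correction (adjusted p = 0.0756). The 4 most abundant genes of this list did not pass. Ptprz1, a receptor-type phosphatase, was at -0.30 (adjusted p = 0.106), Luzp2 at -0.43 (0.0513), the channel subunit gene Cacng4 at -0.04 (0.871) and Tnr, the matrix protein tenascin-R, at 0.43 (0.272). After the correction Ptprz1 was at -0.13, Luzp2 at -0.12, Cacng4 at -0.16 and Tnr at 0.50. The median of the list was -0.04, or -0.12 after the correction, and 10 of 15 were below 0. Its sum overlapped between the genotypes, at 610 to 704 CPM in WT and 492 to 626 CPM in Ube3am-/p+ mice. Of 11 tested genes of committed and newly formed oligodendrocytes none passed (1 lower and 0 higher at an unadjusted p below 0.05, 0 with DESeq2), with Bcas1 at 0.07, Fyn at -0.04, Tnfrsf21 at 0.09 and Rap2a at -0.03.

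Of 19 tested other lineage transcription factors, Nkx6-2 was higher and none lower, where 2.01% of all genes were called. At an unadjusted p below 0.05 (edgeR), 4 of the list were lower (21.1%) and 2 higher (10.5%), against 12.4% and 12.2% of all genes. Nkx6-2, a homeodomain factor of maturing oligodendrocytes with a GC content of 64.3%, went from 15.2 ± 2.03 to 24.7 ± 3.41 CPM (log2 fold change 0.71, adjusted p = 0.0362), and was at 0.35 after the correction (adjusted p = 0.179). Myrf, the main activator of myelin genes, was at 0.20 (adjusted p = 0.186), Zeb2 at -0.38 (0.0507), and the inhibitors of basic helix-loop-helix factors Id2 and Id4 at -0.41 (0.0503) and -0.23 (0.127). After the correction these were 0.04 for Myrf, -0.10 for Zeb2, -0.34 for Id2 and -0.05 for Id4. Among 16 tested genes of growth signals to precursors none passed (1 lower and 1 higher at an unadjusted p below 0.05, 0 with DESeq2). Pdgfa, a ligand of Pdgfra, was at 0.21 (adjusted p = 0.275, and 0.11 after the correction), a value chosen after it was seen. The other platelet-derived growth factor genes of the list were Pdgfb at 0.24 (0.217, and -0.0044 after the correction), Pdgfc at 0.03 (0.938) and Pdgfd at -0.28 (0.450, and -0.02 after it). The 4 most abundant genes of the list were Lingo1 at 0.25 (0.0800, and 0.06 after the correction), Fgfr1 at 0.05, Fgfr3 at 0.02 and Gpr37 at -0.08. Cxcr2 of this list had 0 counts in every library.

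None of 15 myelin genes passed with edgeR, with 6 lower and 0 higher at an unadjusted p below 0.05 and 3 called by DESeq2. That is 40.0% of the list as lower, where 12.4% of all genes were lower at this p. The list's median was -0.10, or -0.09 after the correction, against 0.00 and -0.01 for all genes. Mbp was at 0.02, Mobp at -0.24 (0.112) and Cnp at 0.09. Mobp passed after the correction (-0.33, adjusted p = 0.0431). The myelin genes summed to 9038 to 9260 CPM in WT mice and 7651 to 8707 CPM in Ube3am-/p+ mice, without overlap.

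Other cell types also make some of these genes, so their markers were read in the same libraries. Fibroblasts of the vessels and meninges carry Pdgfra. Their 11 markers, none at 0, summed to 245 to 345 CPM in WT mice and 347 to 573 CPM in Ube3am-/p+ mice. Of these markers 10 of 11 were above 0 on the log2 scale. Col1a1, a collagen chain, was called higher (0.73, adjusted p = 0.0416, and 0.55 with 0.0750 after the correction). Ptgds, which holds the largest part of this sum, was at 0.68 (adjusted p = 0.156, and 0.44 after the correction), Igf2 at 0.29 and Col1a2 at 0.55 (0.0838). The mean of Ptgds alone went from 186.5 CPM in WT to 295.6 CPM in Ube3am-/p+ mice, and the mean of the whole sum from 309.3 to 450.5 CPM. The rise of the sum therefore rests largely on this 1 gene. Pericytes carry Cspg4. Their 9 markers, none at 0, summed to 250 to 271 CPM in WT mice and 227 to 240 CPM in Ube3am-/p+ mice, and Rgs5, a regulator of G protein signalling that holds the largest part of that sum, was called lower (-0.51, adjusted p = 0.0387, and -0.29 with 0.0750 after the correction), with Vtn at 0.16, Pdgfrb at 0.05 and Notch3 at 0.32. The median of the pericyte markers, unlike their sum, was above 0 (0.16, or -0.03 after the correction). The part of these cells in the differences above was not tested. Without robust dispersion 0 genes of all these lists passed (edgeR), against 4 with it (Vcan, Nkx6-2, Col1a1 and Rgs5, and 30 at an unadjusted p below 0.05 with the fold threshold) and 19 with DESeq2.

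The markers of astrocytes, microglia, neurons and hippocampal neurons, 8 genes each and none at 0, gave 0 calls with edgeR and 1, 1, 4 and 3 with DESeq2. At an unadjusted p below 0.05 astrocyte markers were 4 lower and 0 higher, neuron markers 4 lower and 3 higher, and microglia and hippocampus markers 2 lower and 1 higher each, where 12.4% of all genes were lower and 12.2% higher. Among the most abundant were Slc1a2, Slc1a3, Gfap and Gja1 of astrocytes, Csf1r, Cx3cr1 and P2ry12 of microglia, Snap25, Slc17a7, Syt1 and Map2 of neurons, and Neurod6, Wfs1, Prox1 and Calb1 of the hippocampus. All 4 sums were lower in Ube3am-/p+ mice without overlap, at 4106 to 4420 against 4703 to 5243 CPM for astrocytes, 377 to 396 against 408 to 445 for microglia, 6085 to 6364 against 6379 to 6661 for neurons and 812 to 925 against 934 to 979 for the hippocampus. A sum weighs the abundant genes, and medians differed from it. They were -0.18, -0.03, -0.19 and -0.14 for these 4 lists, and -0.07, -0.16, 0.01 and 0.02 after the correction. Other sums were higher in Ube3am-/p+ mice without overlap. They were 243 to 250 against 215 to 241 CPM for Olig1, Olig2 and Sox10 together and 1110 to 1135 against 1087 to 1094 CPM for the growth signals. None of the sums was corrected for GC content. The median of Olig1, Olig2 and Sox10 was 0.20, or -0.02 after the correction, and Olig1, the most abundant of them, was at -0.26 after it. For the growth signals the median was -0.03, or -0.05 after the correction.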

How the data were processed

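Total RNA of the hippocampus was sequenced in 1 library for each mouse. The files hold counts as the authors deposited them (reads per gene symbol as whole numbers, neither normalized nor pooled), and the submitters' processing notes name STAR 2.7.4a, HTSeq and the mm10 build. The annotation and the strand setting were not given in the sources used here. Reads on no gene (54.1% to 55.0% of those listed), ambiguous reads and reads with several alignments were left out. That the mice are separate animals is taken from the labels' numbered titles.

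Genes were kept by filterByExpr, scaled by TMM and tested in R 4.3.3 with edgeR 4.0.16 (quasi-likelihood F test, two-sided, genotype as the only factor, all 6 libraries), with Benjamini-Hochberg adjustment over 14445 genes. A call needed a fold change above 1.2 and an adjusted p under 0.05. Robust dispersion was used, as in earlier processing of these counts. The written design did not name this setting, and it was adopted after the values with and without it had been seen, so both are given where they differ: without it 7 genes and 0 of the 10 members were called. CPM are relative to the total gene counts. Single values were compared by exact permutation over mice. The GC content and the length of each gene's longest transcript (GENCODE M21, GRCm38) were corrected for by natural splines with 5 degrees of freedom each, per library, for 14201 genes. Alternatives were DESeq2 1.42.0, other scaling factors, other filters, a replicate block, the GC correction, each mouse left out, and, added after the data were seen, no robust dispersion and both mice numbered 1 left out. Steps were tested on simulated data. No library was a copy of another, as each pair differed by more than counting noise (chi-square per degree of freedom 3.78 to 21.0).

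The members and gene lists were chosen with earlier results of these data known. The text names all members, Ube3a, the up to 4 most abundant and all called genes of each list (other precursor genes, committed cells, lineage factors, growth signals, myelin, pericytes, fibroblasts, astrocytes, microglia, neurons, hippocampus, proliferation) and genes overlapping a member, with exceptions stated. Values of some genes covered by this rule are not reported here.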

Additional observations from a re-analysis of the deposited data

How the results depend on the processing

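The count of members called was 1 and moved to 2 with DESeq2, with RLE factors, with a filter of at least 10 counts and with the GC correction without both mice numbered 1, to 3 with no filter and at an unadjusted p, to 5 without both mice numbered 1, and to 0 with upper-quartile factors, the replicate block, the GC correction with block and no robust dispersion (edgeR, 3 at an unadjusted p below 0.05 in each). All genes called were 290, and 967 with DESeq2, 1176 with no filter, 92 with the GC correction, 13 with that and the block, 0 with the block (2422 at an unadjusted p below 0.05), 7 with no robust dispersion, 4138 and 1320 without both mice numbered 1 (plain and GC-corrected) and 2832 at an unadjusted p. The 4 calls in the other gene lists became 19 (DESeq2), 7 (RLE), 7 (library size only), 20 (no filter), 8 (at least 10 counts), 0 (block), 1 (GC), 0 (GC with block), 0 (no robust dispersion), 39 and 14 (without both mice numbered 1) and 30 (unadjusted p).

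Pdgfra lost its call at -0.42 with upper-quartile factors (adjusted p = 0.0516), -0.44 with the replicate block (0.216), -0.36 with GC correction and block (0.114) and -0.43 with no robust dispersion (0.0617). C1ql1 passed with RLE factors (0.85), no filter (0.86), at least 10 counts (0.84) and without both mice numbered 1 (1.10). Sox10 passed with DESeq2 (0.31), no filter (0.32) and without both mice numbered 1 (0.31), and was -0.10 there with the GC correction. Without both mice numbered 1 Enpp6 (-0.60) and Olig2 (0.49) passed, which with the GC correction they did not (-0.28, adjusted p = 0.333, and 0.17, adjusted p = 0.423), and Cspg4 was 0.084 and Olig1 -0.0014. Olig1 was -0.26 with the GC correction, -0.27 with the block added and -0.42 without both mice numbered 1. Olig2 was -0.016 and Lhfpl3 0.050 with the GC correction, and Lhfpl3 0.051 with the block added. The members' median went from -0.01 to 0.041 and, GC-corrected, to -0.12 without both mice numbered 1. The cause of these moves was not tested.

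With each mouse left out in turn, members called ran from 0 to 4, all genes called from 0 to 2582 and calls in the other lists from 0 to 28. The log2 fold changes ran from -0.52 to -0.34 for Pdgfra, -0.11 to 0.040 for Cspg4, 0.62 to 1.11 for C1ql1, -0.019 to 0.14 for Neu4, -0.27 to -0.08 for Lhfpl3, -0.11 to -0.02 for Gpr17, -0.45 to -0.11 for Enpp6, -0.026 to 0.058 for Olig1, 0.080 to 0.47 for Olig2 and 0.29 to 0.34 for Sox10, and the members' median from -0.05 to 0.02. The labels name no shared litter or day, so the replicate number was not taken as a pairing, although the mice numbered 1 were the most alike of all pairs. Deviations of same-numbered mice from their genotype means had correlations of -0.285, -0.177 and -0.311 across genes. These cannot show whether the number marks a shared litter or day. The GC gradient ran in opposite directions from mouse 1 to the other mice of each genotype. With 3 mice per genotype a single library can decide a call.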

Other observations

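Ratios within a library do not depend on its scaling, and the ones given here were chosen after the data were seen. Pdgfra had 16.1, 18.3 and 18.6 counts per 100 counts of the 9 other members in WT mice 1, 2 and 3 and 12.5, 14.5 and 10.8 in Ube3am-/p+ mice 1, 2 and 3, without overlap (exact permutation p = 0.1, the smallest possible). Per 100 counts of Olig1 it had 44.99, 47.5 and 52.7 in WT and 34.0, 41.1 and 30.9 in Ube3am-/p+ mice, also without overlap (exact permutation p = 0.1). Against Cspg4 and Lhfpl3 the genotypes overlapped (exact permutation p = 0.2 and 0.3). None of these ratios was corrected for GC content, which is 48.1% for Pdgfra and 61.1% for Olig1. After the GC and length correction the log2 fold change was -0.36 for Pdgfra and -0.26 for Olig1. Olig2 per 100 counts of its neighbour Olig1 was 27.8, 17.0 and 18.7 in WT and 21.9, 24.7 and 25.4 in Ube3am-/p+ mice, so that WT mouse 1 stood apart from the other WT mice in this ratio as well. The members together had 4.93 to 5.23 counts per 100 counts of myelin genes in WT and 5.22 to 5.93 in Ube3am-/p+ mice.

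Of 6 genes of dividing cells 3 had enough counts to be tested and none passed (edgeR, 0 at an unadjusted p below 0.05, 0 with DESeq2). Pcna was at 32.6 ± 1.72 CPM in WT and 36.9 ± 3.29 CPM in Ube3am-/p+ mice (SD, n = 3, log2 fold change 0.20, adjusted p = 0.272). Mki67 was at 4.05 ± 0.892 and 3.57 ± 0.617 CPM, and Top2a at 3.27 ± 0.342 and 3.59 ± 0.483 CPM.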
